A study of Mus musculus with 15 samples.

Results

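Livers of Tlr4 mutant mice exposed to a DNA-damaging carcinogen and a hepatotoxin were compared with livers of unexposed wild-type mice, in which neither the mutation nor the exposure was present. The comparison used 7 of the 15 arrays of the series, 4 from treated mutants and 3 from untreated wild types. It covered every gene with a probe set of a single gene symbol that reached a log2 value of 4 on at least 3 of the 15 arrays, with the probe set of the highest mean standing for its gene. These were 9482 of the 18193 genes named on the array.

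Untreated wild types were C3H/HeOuJ mice sacrificed at an age of 15 weeks. Treated mutants were C3H/HeJ mice of the same age that carry the Tlr4P712H allele. They had received diethylnitrosamine (DEN) at 100 mg/kg in week 12 and carbon tetrachloride (CCl4) at 0.50 ml/kg in weeks 13 and 15, with the liver taken 48 hours after the last dose. The labels give male sex for all of these mice except mutant replicate 1, for which no sex is given. C3H/HeJ and C3H/HeOuJ are separate inbred substrains, and the series has no untreated C3H/HeJ group, so the mutation, the rest of the strain background and the treatment cannot be told apart in this comparison. Another group, 4 livers of C3H/HeOuJ wild types given the same doses at the same times, is used beside it. The difference between treated mutant and treated wild type is the test of whether a gene stood at another level in the mutant under the same exposure. The last group, 4 C3H/HeOuJ wild types given ampicillin, neomycin, metronidazole and vancomycin in the drinking water before a course of DEN and CCl4, counts only towards the filter and the estimate of the spread. A description field shared by all samples names a younger age and a liver resection, against the age, treatment and protocol fields, which agree on the design given here and were followed; the conflict could not be settled from the labels.

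Tlr4 is the receptor for bacterial lipopolysaccharide (LPS), which reaches the liver in portal blood and acts there mainly on Kupffer cells, the resident macrophages, and on stellate cells, the source of scar matrix. The mutation of C3H/HeJ lies in the cytoplasmic signalling domain and leaves the mice unresponsive to LPS. Hepatocytes around the central vein convert both DEN and CCl4 into reactive products through cytochrome P450 2e1. DEN then alkylates DNA, CCl4 kills pericentral hepatocytes, and the surviving hepatocytes divide to replace them.

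All values are deposited log2 GCRMA levels, a background-corrected and normalised measure of hybridisation, so a difference of 1 is a 2-fold change. A value under 4 was taken as close to background. Where an array of the lower group was under it, it was replaced by 4, and the fold change is then a lower bound, written "at least". Between 34.6% and 36.7% of probe sets reached 4 on each array, and arrays of 1 group correlated at 0.977 to 0.993 over the genes tested. Hepatocyte identity was plain in both groups: albumin (Alb) was at 14.76 ± 0.1 (SD, n = 3) in untreated and 14.73 ± 0.07 (SD, n = 4) in mutant liver. The medians of the mutant arrays (7.84 to 7.85) lay above those of the untreated arrays (7.65 to 7.68), and centring each array on its median would lower every difference from untreated liver by 0.18 and raise every difference from treated wild type by 0.04. The 3′ minus 5′ signal of the Actb control probe sets, a sign of RNA quality, was 3.63 to 4.0 in untreated, 3.07 to 3.71 in mutant and 2.25 to 2.76 in treated wild-type liver. The Gapdh control probe sets gave 1.42 to 1.6, 1.4 to 1.86 and 0.86 to 1.15. Their part in the results was not tested. The labels do not say whether replicates are separate mice, so p-values measure only the spread between these samples.

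Of the 9482 genes, 5136 (54.2%) differed between treated mutant and untreated wild-type liver. Of all genes, 3095 (32.6%) were higher and 2041 (21.5%) lower in the mutant, at a Benjamini-Hochberg adjusted p under 0.05 in a limma fit of 4 group means to all 15 arrays. At least a 2-fold change was seen for 1204 of the higher genes (12.7% of all tested) and 709 of the lower genes (7.48%), and at least a 4-fold change for 396 and 185. The median difference over all genes was 0.13. Higher genes made up 60.3% of those called, 43.4% after each array was centred on its median and 47.1% after quantile normalisation. On 5395 genes (56.9%), called or not, the mutant and untreated arrays did not overlap. Genes of DNA replication and mitosis, of the cytoskeleton, of ribosomes and of heat shock were among those higher, and P450s, pericentral enzymes, sterol and bile acid synthesis and male-biased genes among those lower. Of the genes tested, 800 (8.44%) were under 4 on all 3 untreated arrays and passed the filter only through exposed arrays, and 527 of them were called higher in the mutant. Where mutant arrays let such a gene pass, it had to differ, so the number of such members is given below for the lists where it weighs most.

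**Figure D1:**
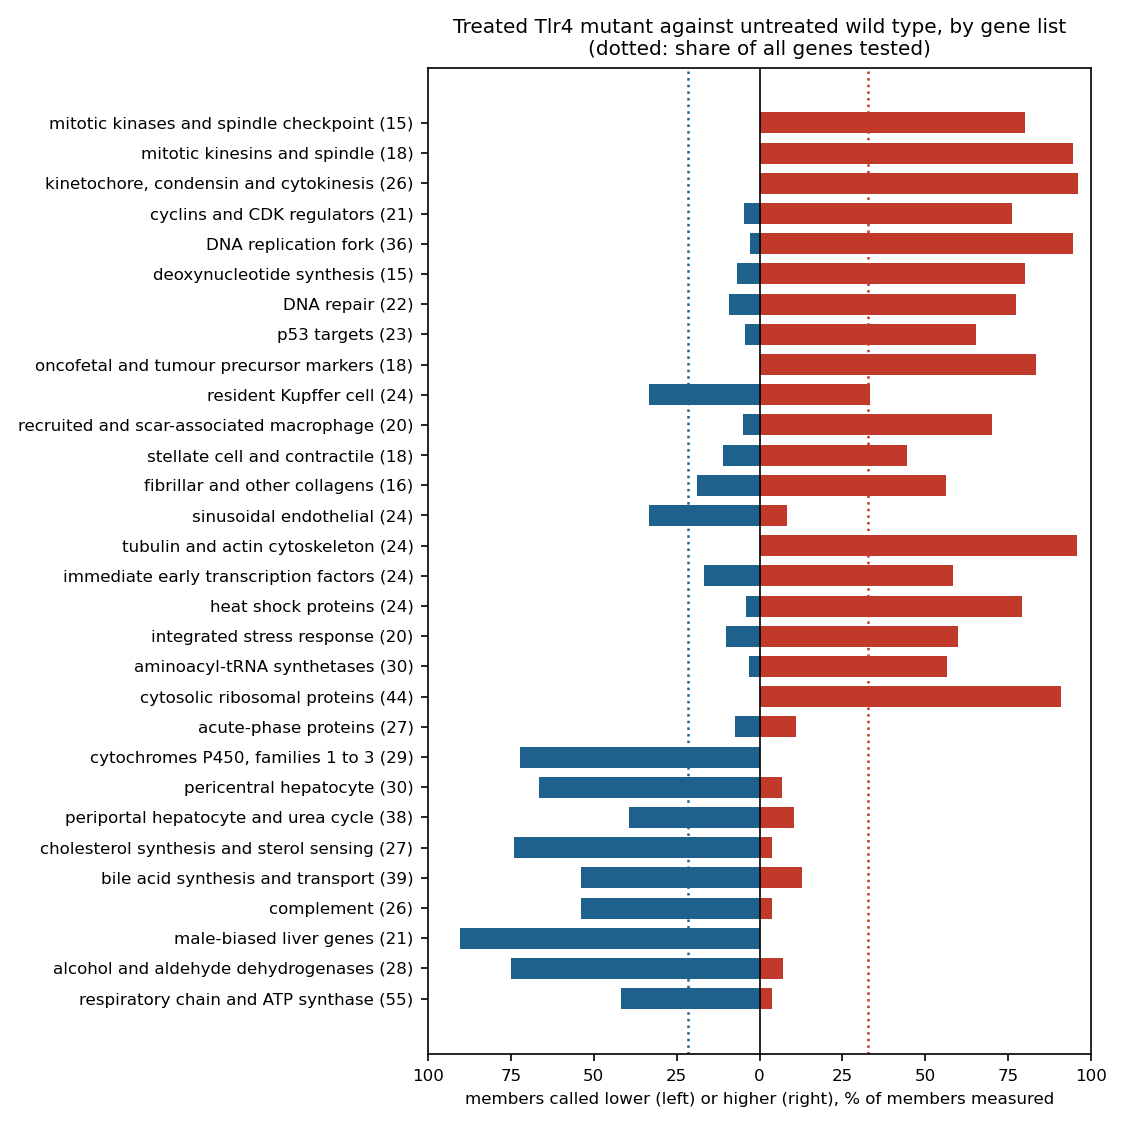
Share of the measured members of 30 gene lists that were called higher (red, to the right) or lower (blue, to the left) in treated Tlr4 mutant than in untreated wild-type liver, in % of members measured (number in parentheses). The dotted lines mark the shares over all genes tested, 32.6% higher and 21.5% lower. The division, cytoskeleton and ribosome lists lie far to the right, and the P450, sterol and male-biased lists far to the left.

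The largest difference among the genes tested was that of Lgals3, which encodes galectin-3, a sugar-binding protein made by macrophages and injured epithelium. Its levels were 2.63, 4.21 and 3.66 in untreated liver and 12.89, 12.39, 11.93 and 12.74 in the mutant, at least a 341-fold rise (adjusted p = 3.85e-10). No mutant array came near an untreated one. The mutant mean was 0.86 ± 0.34 (SE) above that of treated wild type, which was not called (adjusted p = 0.0718) but was after quantile normalisation (0.0461), with values under 4 raised to 4 (0.0286), with array weights (0.0201), in a fit to 8 arrays (0.0384) and without mutant replicate 3 (0.0409). Sprr1a, a cornified envelope protein induced in stressed epithelia, stood at 3.4, 3.39 and 3.0 against 11.7, 11, 9.95 and 11.17, at least 124-fold higher. S100a6, a small calcium-binding protein, rose at least 105-fold, and Cpe, the prohormone-processing carboxypeptidase E, at least 43.8-fold. Among genes that were at 4 or more on all 7 arrays, the largest rises were those of Afp, Mcm5 and Rrm2, which are given below, followed by Anxa2 (51.1-fold), which encodes the membrane-binding annexin A2, Mcm6 (49.2-fold) and the protease inhibitor Slpi (44.5-fold).

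Dividing cells copy their DNA with a helicase loaded at replication origins and then build a spindle under the control of cyclin-dependent kinases. Most genes of this machinery were higher in the mutant. In the replication fork list, 34 of 36 measured members were called higher and 1 lower, with a median difference of 2.80. The helicase subunit Mcm5 was at 4.62, 5.49 and 4.4 in untreated liver and at 11.31, 11.57, 11.7 and 11.3 in the mutant, a difference of 6.64 ± 0.24 (SE, 99.5-fold, adjusted p = 1.29e-10). Every mutant array was far above every untreated one. Uhrf1, which keeps methylation marks on copied DNA, rose at least 76.5-fold, the origin licensing factor Cdt1 39.2-fold, and the primase subunit Prim1 26.7-fold. The clamp Pcna rose 5.04-fold from a mean of 9.67, a level at which untreated liver was already well above background. Mcm10 was the 1 member called lower, from 10.89 to 9.3. Of these members, 8 were under 4 on all untreated arrays, and of the other 28, 26 were called higher.

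The supply of deoxynucleotides followed, with 12 of 15 measured members called higher and 1 lower. Rrm2, the limiting subunit of ribonucleotide reductase, was at 4.87, 5.66 and 5.54 in untreated liver and at 11.11, 11.26, 11.65 and 11.17 in the mutant, a 61.5-fold rise with no overlap. The other subunit, Rrm1, rose from 4.41 to 8.95 in the means. Of 22 measured DNA repair genes 17 were called higher and 2 lower, with 9 under 4 on all untreated arrays. They included Hells, a chromatin remodeller of replicating cells (at least 66.5-fold), and Chek1, the replication checkpoint kinase, which rose from a mean of 2.32 to 7.89.

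Mitotic genes were higher in the mutant as well, most of them from levels under 4 in untreated liver. In the kinetochore, condensin and cytokinesis list 25 of 26 measured members were called higher, in the kinesin and spindle list 17 of 18, and in the mitotic kinase and checkpoint list 12 of 15, with none called lower in any of the 3 lists. Their median differences were 4, 2.63 and 3.31. Once every value under 4 had been raised to 4, the kinesins had a median of 1.53 with 10 called, and the kinases a median of 1.66. Under 4 on all untreated arrays were 19, 18 and 10 of these members. Cdk1, the kinase that drives entry into mitosis, was at 2.55, 3.05 and 2.1 in untreated liver and at 8.52, 8.33, 8.19 and 7.67 in the mutant, at least 18.1-fold higher (adjusted p = 1.47e-07). Cdc20, which activates the anaphase-promoting complex, was at 4.31, 4.41 and 3.77 against 10.06, 10.57, 9.67 and 9.26, at least 50.2-fold higher. For both genes the lowest mutant array was far above the highest untreated one. Mki67, the proliferation marker Ki-67, rose from a mean of 2.64 to 9.03 (at least 32.8-fold) and Top2a, the topoisomerase that untangles chromosomes, from 2.47 to 8.56 (at least 23.6-fold). Ube2c, the ubiquitin-conjugating enzyme of the anaphase-promoting complex, was at least 23.9-fold higher.

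The exposed wild type stood still higher in these genes. Between treated mutant and treated wild type, 1249 of 9482 genes (13.2%) were higher and 1668 (17.6%) lower in the mutant (1552 and 1522 after centring, 1852 and 1494 after quantile normalisation). Lower were all 26 measured kinetochore, all 18 kinesin and 14 of 15 kinase members, and none of the 3 lists had a member called higher. Cdk1 averaged 10.12 in treated wild-type liver, 1.94 above the mutant (adjusted p = 0.00241), and Mki67 11.25 against 9.03, a difference of 2.22 ± 0.41 (SE). In Bub1, a spindle checkpoint kinase, the groups averaged 1.61 in untreated, 6.37 in mutant and 9.14 in treated wild-type liver. The replication list was less uniform, with 25 of 36 members lower and 1 higher than in treated wild type. Rrm2 was 1.69 lower and Mcm5 0.84 lower, while Cdt1 (10.7 against 11.1) and Mcm4 (10.59 against 11.1) were not called. Cdt1 and Mcm4 were called lower with array weights (adjusted p = 0.039 and 0.0473). Cdt1 was also called without mutant replicate 3 (0.0194) and with its probe sets averaged (0.0466). The mutant and the treated wild type are each compared with the same 3 untreated arrays, so their distances from that group are not independent.

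**Figure D2:**
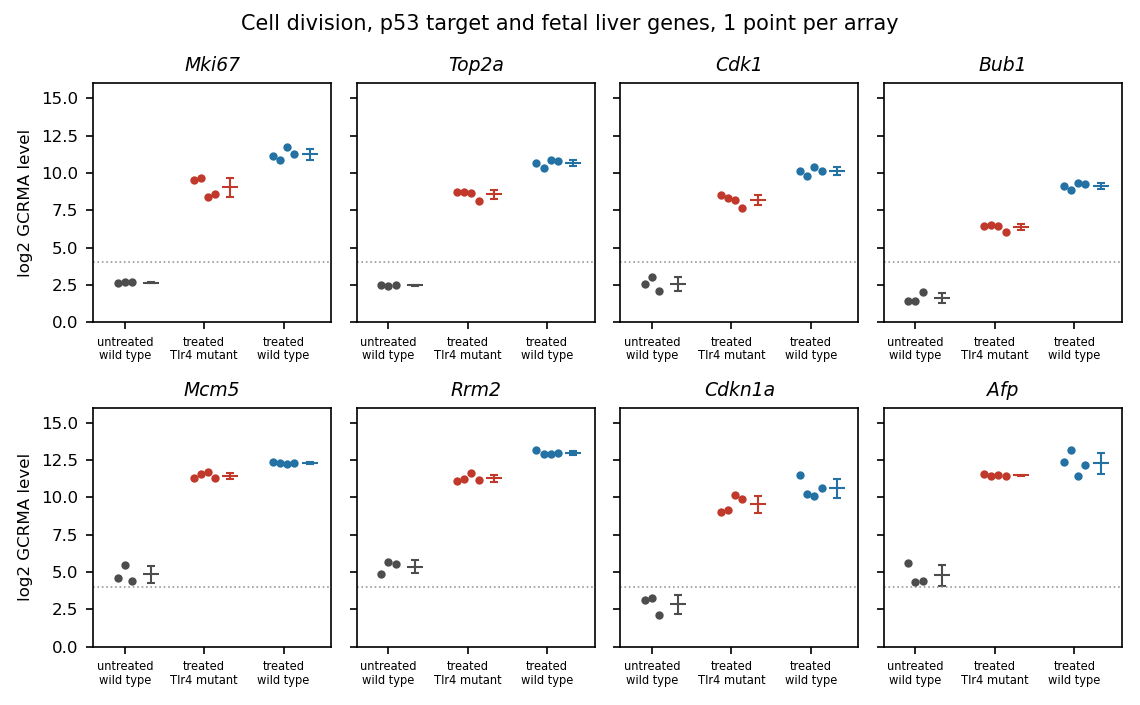
Log2 GCRMA levels (vertical axis) of Mki67, Top2a, Cdk1, Bub1, Mcm5, Rrm2, Cdkn1a and Afp in 3 untreated wild-type, 4 treated Tlr4 mutant and 4 treated wild-type livers. Each point is 1 array, the bar beside the points is the mean ± SD, and the dotted line marks 4. In the mitotic genes the mutant lies between the other groups, while in Afp both treated groups lie near each other.

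Most cyclins rose. Ccnd1, the G1 cyclin D1, rose 11.9-fold from a mean of 7.81 to 11.38 and did not differ detectably from treated wild type (difference -0.1 ± 0.25 SE, adjusted p = 0.806). Ccne2, an S-phase cyclin E, rose 14.2-fold, and Ccna2, cyclin A2, at least 13.4-fold to a mean of 7.74, 2.01 below treated wild type. Over the whole list of cyclins and their regulators 16 of 21 measured members were called higher and 1 lower, and 6 were under 4 on all untreated arrays. The lower one was Myc, a transcription factor of growth, at means of 8.86 and 7.98; its call was lost on leaving out any of 5 of the 7 arrays, with a difference of -0.47 without untreated replicate 2.

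Because the mitotic genes moved together, the 150 bases before their annotated starts were searched for 2 elements known from cell cycle promoters, the cell cycle homology region (TTTGAA) and the CCAAT box (CCAAT), on both strands. TTTGAA stood in 17 of the 50 promoters found for the 3 mitotic lists (34%) and in 531 of 7762 promoters of all genes tested (6.84%). CCAAT stood in 34 of 50 (68%) and in 32.5% of all. Shown here, because each holds both elements, are the promoters of 4 genes described above, from RefSeq on build GRCm38.p6, 5′ to 3′ on the strand of the gene, with matches in capitals (ATTGG and TTCAAA are the same elements on the other strand). They lie at chr10:69352913-69353062 (minus strand) for Cdk1, chr4:118437344-118437493 (minus) for Cdc20, chr11:99024190-99024339 (minus) for Top2a and chr2:164769779-164769928 (plus) for Ube2c.
Cdk1: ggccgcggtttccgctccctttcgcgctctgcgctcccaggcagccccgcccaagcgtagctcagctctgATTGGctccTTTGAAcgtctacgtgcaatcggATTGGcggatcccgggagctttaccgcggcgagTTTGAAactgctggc
Cdc20: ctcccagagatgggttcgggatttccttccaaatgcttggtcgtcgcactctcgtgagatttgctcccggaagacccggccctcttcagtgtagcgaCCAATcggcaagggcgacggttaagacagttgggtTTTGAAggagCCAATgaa
Top2a: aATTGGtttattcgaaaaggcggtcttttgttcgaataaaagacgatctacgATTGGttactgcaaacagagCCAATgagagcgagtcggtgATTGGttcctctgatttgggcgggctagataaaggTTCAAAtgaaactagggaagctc
Ube2c: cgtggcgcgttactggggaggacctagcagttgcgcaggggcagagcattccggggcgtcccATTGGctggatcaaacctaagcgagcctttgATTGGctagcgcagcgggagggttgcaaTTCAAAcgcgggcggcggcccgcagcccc
The E2F element of S-phase genes, searched as TTTCCCGC, TTTCGCGC, TTTGCCGC or TTTGGCGC, stood in 6 of the 28 promoters found for the replication fork list (21.4%), in 6% of the mitotic ones and in 2.8% of those of all genes tested. Mcm6 holds 3 matches, the first pair overlapping on opposite strands, and Hells 1; their windows are chr1:128359706-128359855 (minus) and chr19:38930840-38930989 (plus), with E2F matches in capitals.
Mcm6: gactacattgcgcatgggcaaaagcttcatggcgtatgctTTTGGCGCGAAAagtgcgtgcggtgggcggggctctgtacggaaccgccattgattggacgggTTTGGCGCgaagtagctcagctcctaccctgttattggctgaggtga
Hells: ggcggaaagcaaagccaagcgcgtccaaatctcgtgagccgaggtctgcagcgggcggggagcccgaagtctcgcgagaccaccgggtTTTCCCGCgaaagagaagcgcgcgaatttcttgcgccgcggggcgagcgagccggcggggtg
A match describes the letters in this window and is not evidence that a factor was bound.

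DNA adducts such as those of DEN can activate p53. Of 23 measured p53 targets, 15 were called higher and 1 lower (12 and 4 after centring each array, 12 and 3 after quantile normalisation). Under 4 on all untreated arrays were 7 of the 23. Whether p53 caused these differences was not tested. Cdkn1a, the cell cycle inhibitor p21, was at 3.1, 3.25 and 2.13 in untreated liver and at 9.0, 9.15, 10.16 and 9.89 in the mutant, at least a 46.9-fold rise (adjusted p = 2.61e-09). It was 1.06 ± 0.33 (SE) lower than in treated wild type, with a mean of 10.61 there (adjusted p = 0.0247), a call lost without mutant replicate 1 or 2 or treated wild-type replicate 1 or 4. Aen, an apoptosis-enhancing nuclease, rose 7.77-fold, and Mdm2, the ligase that degrades p53, 2.39-fold. Neither was called between mutant and treated wild type.

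Genes that mark fetal liver and early liver lesions were higher in the mutant, with 15 of 18 measured members called and none lower, and 9 of the 18 under 4 on all untreated arrays. Afp, the fetal albumin-like protein, was at 5.6, 4.36 and 4.38 in untreated liver and at 11.56, 11.43, 11.51 and 11.43 in the mutant, a 104-fold rise with the mutant arrays close to each other. Its mean of 12.3 in treated wild type was not called different (adjusted p = 0.0699). Afp was called lower in the mutant without treated wild-type replicate 3 (0.0171), with its probe sets averaged (0.0454) and with array weights (0.0457). Prom1, a membrane protein of progenitor and biliary cells, rose at least 32.6-fold and was 2.25 ± 0.57 (SE) higher than in treated wild type. Lcn2, the iron-scavenging lipocalin 2, rose at least 33.1-fold and stood 1.75 below treated wild type, a call lost on leaving out any exposed array but mutant replicate 1 and treated wild-type replicate 2. Gpc3 and Igf2, further oncofetal genes, did not pass the filter and are not compared.

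Resident Kupffer cell markers went both ways, with a median difference of -0.11. Over all genes tested, 32.6% were called higher and 21.5% lower. Of 24 measured Kupffer members 8 were called higher, near the share of all genes, and 8 lower (5 and 9 after quantile normalisation). The lower ones were Vsig4, Cd163, Clec4f, Cd5l, Csf1r, Mrc1, Adgre1 and Slc40a1, and the higher ones Cd68, Lgmn, Id3, Marco, Msr1, Ctss, Cfp and Fcer1g. Both sides hold genes used as markers of the resident cell. Vsig4, the complement receptor of Kupffer cells, was at 6.01, 7.83 and 8.55 in untreated liver and at 3.57, 3.59, 4.05 and 3.85 in the mutant, at least 11-fold lower (adjusted p = 2.15e-05). Clec4f, a lectin restricted to Kupffer cells, was at 5.27, 7.19 and 7.54 against 2.48, 3.48, 3.17 and 3.38, at least 6.36-fold lower. Cd163, the scavenger receptor for haemoglobin, stood at 5.86, 7.22 and 7.33 against 3.13, 2.76, 4.31 and 2.64, at least 6.61-fold lower. In all 3 genes the first untreated array was the lowest of its group, yet it still lay above every mutant array, and most mutant values were under 4. Fcna, ficolin A, a Kupffer cell gene outside the list, was at least 5.21-fold lower, and Csf1r, the receptor for the macrophage growth factor, fell 2.43-fold from a mean of 8.94. On the other side, the scavenger receptor Marco was at 3.46, 3.15 and 3.09 in untreated and at 5.06, 4.31, 5.17 and 3.95 in mutant liver, at least 1.55-fold higher; its call was lost with values under 4 raised to 4 (adjusted p = 0.169) and after quantile normalisation (0.0613). Msr1, another scavenger receptor, rose 2.47-fold and Ctss, the protease cathepsin S, 2.15-fold.

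These genes were also lower in the mutant than in treated wild type. Vsig4 averaged 9.36 there, 5.59 ± 0.45 (SE) above the mutant (at least 40.7-fold, adjusted p = 1.26e-06), and Clec4f 7.23. Of the 24 Kupffer members 19 were lower in the mutant than in treated wild type and 1 was higher, and in treated against untreated wild type 19 were higher (35.9% of all genes) and 1 lower (26.7%). Tyrobp, the signalling adaptor of myeloid receptors, was at 4.3, 5.71 and 6.05 in untreated and at 5.67, 5.69, 5.21 and 5.69 in mutant liver, overlapping ranges with a difference of 0.21 ± 0.41 (SE, adjusted p = 0.674), and at 9.73 in treated wild type. Cybb, the phagocyte oxidase subunit, showed the same order, with means of 4.74, 5.01 and 8.52. Bulk RNA cannot tell fewer cells of a type from less RNA per cell.

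Other macrophage-associated genes were high in both exposed groups. Cd68, a lysosomal protein of macrophages, was at 2.6, 2.94 and 3.05 in untreated and at 9.72, 8.74, 9.41 and 9.41 in mutant liver, at least 39.9-fold higher and not detectably different from treated wild type (0.02 ± 0.28 SE, adjusted p = 0.959). Lgmn, a lysosomal protease, rose 7.06-fold. In the list of recruited and scar-associated macrophages 14 of 20 measured members were called higher and 1 lower (median 1.54), 8 were under 4 on all untreated arrays, and 15 were lower than in treated wild type. Lgals3, S100a6 and Cd9, a tetraspanin, led this list; they are not restricted to macrophages, and Cd9 was 0.99 higher in the mutant than in treated wild type. The mean level of the whole list was 4.52 to 5.07 on untreated, 6.31 to 6.59 on mutant and 7.61 to 7.9 on treated wild-type arrays, and that of the Kupffer list 5.41 to 6.25, 5.76 to 5.87 and 7.72 to 8.16.

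Stellate cells turn into contractile, collagen-producing cells after injury. Of 18 measured members of their list 8 were called higher and 2 lower in the mutant; without the first untreated array the counts were 7 and 4, and after quantile normalisation 6 and 5. Acta2, the smooth muscle actin that marks activated stellate cells, was at 5.27, 5.41 and 4.97 in untreated and at 8.17, 8.3, 8.15 and 8.19 in mutant liver, a 7.93-fold rise. The mutant arrays lay close to each other, and their mean was 2.13 below that of treated wild type, 10.34 (adjusted p = 6.14e-06). Col1a1, a chain of type I collagen, was at 1.76, 2.12 and 2.41 against 4.46, 5.81, 3.71 and 5.19, at least 1.82-fold higher, with 1 mutant array still under 4; the call was lost once values under 4 were set to 4. Its partner Col1a2 rose 3.77-fold and Col3a1 2.48-fold. Among 16 measured collagens 9 were called higher and 3 lower. Of the stellate members 17 were lower in the mutant than in treated wild type, and none was higher; all 18 were called higher in treated than in untreated wild type. Timp1, an inhibitor of matrix proteases, was under 4 on every mutant and untreated array and was not called (adjusted p = 0.0882; 0.0307 without mutant replicate 3), against a mean of 5.4 in treated wild type.

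**Figure D3:**
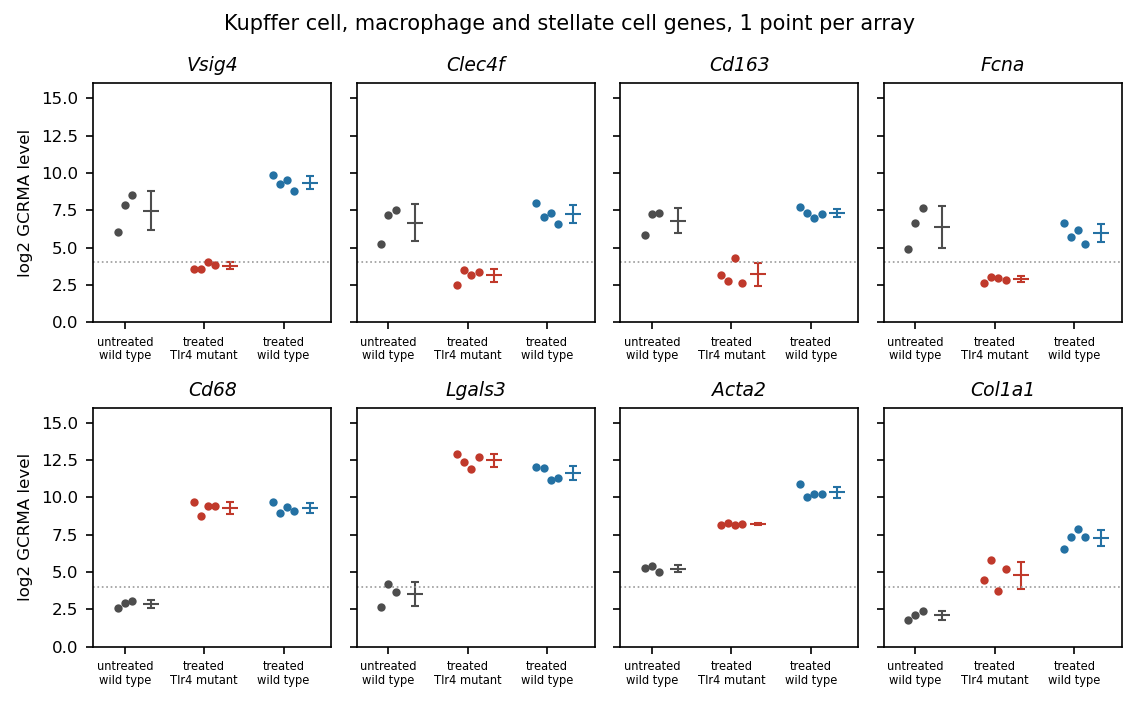
Log2 GCRMA levels (vertical axis) of Vsig4, Clec4f, Cd163 and Fcna, which are Kupffer cell genes called lower, the macrophage genes Cd68 and Lgals3 and the stellate cell genes Acta2 and Col1a1 in 3 untreated wild-type, 4 treated Tlr4 mutant and 4 treated wild-type livers, 1 point per array with the mean ± SD beside it and a dotted line at 4. The mutant is the lowest group in the upper 4 panels, near treated wild type in Cd68 and Lgals3, and between the other groups in Acta2 and Col1a1.

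Sinusoidal endothelial markers were mostly not called: 2 of 24 measured members were higher and 8 lower (median -0.39). These counts rested on single arrays, with 14 lower without untreated replicate 1, 4 without untreated replicate 2, 5 without untreated replicate 3 and 5 without mutant replicate 2, and 14 after centring (11 after quantile normalisation). Stab2, the endothelial receptor that clears hyaluronan, fell from 7.99, 8.26 and 8.3 to 7.5, 6.96, 6.82 and 6.97, 2.17-fold. It was 2.12-fold lower than in treated wild type, which was not called against untreated liver (-0.03). In all, 22 endothelial members were lower in the mutant than in treated wild type. The cholangiocyte and progenitor list had 8 of 9 measured members higher and none lower, with 6 under 4 on all untreated arrays. Sox9, a transcription factor of biliary cells, was at 3.24, 3.71 and 3.73 against 5.78, 4.89, 4.75 and 4.87. It was not called between treated and untreated wild type, and the mutant stood 1.1 above treated wild type. All neutrophil markers on the array, filtered or not, averaged 2.25 to 2.28 on untreated and 2.22 to 2.38 on mutant arrays. T and NK cell markers averaged 2.32 to 2.42 and 2.31 to 2.38. These levels are near background, and only 2 members of each list were measured. Both neutrophil members were called higher, but neither after centring or quantile normalisation. Of the T and NK cell members 1 was higher and 1 lower.

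Tlr4 itself did not pass the filter: its probe set read 1.99 to 2.65 in untreated and 1.84 to 2.91 in mutant liver, and a point mutation cannot be seen by a 3′ array. Of the receptors and adaptors of LPS sensing, 17 were measured and 7 called higher and 2 lower (4 and 4 after centring, 4 and 3 after quantile normalisation). Cd14, the co-receptor that hands LPS to Tlr4, was at 2.63, 2.61 and 2.49 in untreated and at 8.98, 8.28, 7.94 and 8.2 in mutant liver, at least a 20.4-fold rise. It did not differ detectably from treated wild type (0.56 ± 0.24 SE, adjusted p = 0.0943; 0.017 with array weights). Myd88, the adaptor of Tlr signalling, rose 1.7-fold. No array of the 15 reached 4 for the cytokine genes Tnf (1.9 to 2.56), Il1b (2.55 to 2.92) or Il6 (1.3 to 1.74), so none of them could be compared. Few acute-phase proteins of the hepatocyte were called, with 3 of 27 measured members called higher and 2 lower (2 and 8 after centring). Saa3 rose 7.73-fold, and Socs3, the feedback inhibitor of interleukin-6 signalling, fell 3.73-fold.

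Several stress genes were higher in the mutant than in either wild-type group. Hbegf, a growth factor that activates the EGF receptor, was at 2.05, 2.13 and 3.14 in untreated liver and at 7.85, 7.48, 6.97 and 7.31 in the mutant, at least 10.6-fold higher (adjusted p = 1.77e-07). Treated wild type averaged 4.3, and the difference of 3.11 from the mutant (at least 8.41-fold) was called with an adjusted p of 2.86e-05. Sprr1a averaged 7.78 there, 3.17 ± 0.45 (SE) below the mutant. The related Sprr1b was at 8.26, 6.45, 5.41 and 7.74 in the mutant and near background in both other groups (means of 2.39 and 2.53). Its mutant arrays alone were enough to pass the filter, so part of this difference follows from that filter.

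Immediate early genes, which respond within minutes to growth factors and stress, had 14 of 24 measured members higher and 4 lower than in untreated liver, and 7 higher and 1 lower than in treated wild type. Ier3, a survival gene induced by stress, rose at least 28-fold and stood 2.51 above treated wild type. Klf4, a zinc finger factor of differentiating epithelia, rose at least 16.7-fold and stood 1.84 above it. Fos, by contrast, rose at least 10.4-fold and Klf6 12.4-fold with no call between the exposed groups. Klf10 and Dusp1, members of the same list, fell by 2.53 and 1.7.

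The heat shock list had 19 of 24 measured members higher and 1 lower (16 and 2 after centring; without mutant replicate 4, 3 members were lower), with a median difference of 0.66. Hspa1b, an inducible Hsp70, was at 9.73, 9.09 and 9.72 in untreated and at 11.79, 12.09, 11.17 and 12.55 in mutant liver, 5.23-fold higher. Treated wild type averaged 9.02, not called against untreated liver and 2.88 below the mutant (adjusted p = 0.000117). Hspb1, the small heat shock protein Hsp27, was at 5.42, 3.37 and 3.9 against 10.81, 9.94, 8.49 and 8.96, at least 33.7-fold higher, and 3.04 above treated wild type. Over the whole list, 5 members were higher and 1 lower than in treated wild type, and 18 were not called. In treated against untreated wild type, 13 were higher and 2 lower. Hspa1b and Hspa1a are near-identical, so probes for either can take up the other. The heat shock element was searched as GAA, TTC and GAA or TTC, GAA and TTC in a row, with 2 free bases between neighbours. It stood in 2 of 20 promoters of the list (10%) and in 0.206% of those of all genes tested. The 2 were those of Hspd1 and Hspe1. Whether their windows share the same bases was not tested, so these may not be separate matches.

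The integrated stress response, in which Atf4 turns on amino acid supply when protein synthesis is held back, had 12 of 20 measured members higher and 2 lower, with 7 under 4 on all untreated arrays. Compared with treated wild type, 10 members were higher and none lower; treated against untreated wild type gave 5 higher and 4 lower. Nupr1, a small stress-induced chromatin protein, was at 2.24, 2.38 and 2.15 in untreated and at 9.87, 6.9, 5.24 and 7.06 in mutant liver, at least 9.62-fold higher, with the mutant arrays widely spread but all above the untreated ones. Slc3a2, the heavy chain of amino acid exchangers, rose 3.58-fold and was 1.77 above treated wild type, where it was not called. Atf3, a repressor induced by Atf4, rose at least 4.99-fold. Asns, asparagine synthetase, was called higher, but not without untreated replicate 3 (1.06, adjusted p = 0.138). The C/EBP-ATF response element (TGATGCAA) stood in 2 of 17 promoters of the list (11.8%), against 0.412% of all genes tested. Both are shown, with the match in capitals on the opposite strand (TTGCATCA), at chr7:126625471-126625620 (minus strand) for Nupr1 and chr1:191183334-191183483 (minus) for Atf3.
Nupr1: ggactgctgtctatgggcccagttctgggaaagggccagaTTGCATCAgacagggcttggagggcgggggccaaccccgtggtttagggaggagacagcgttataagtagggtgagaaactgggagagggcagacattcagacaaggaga
Atf3: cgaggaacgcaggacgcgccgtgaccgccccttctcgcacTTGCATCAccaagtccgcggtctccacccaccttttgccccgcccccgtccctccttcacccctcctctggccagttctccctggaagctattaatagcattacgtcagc

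In the list of serine synthesis and related enzymes, 9 of 22 measured members were called higher and 8 lower, with a median difference of 0.03. After centring the counts were 8 and 10. Under 4 on all untreated arrays were 6 members. Compared with treated wild type, 2 members were higher and 1 lower. Serine synthesis starts from a glycolytic intermediate and feeds nucleotide and glutathione synthesis. Phgdh, its first enzyme, was at 2.59, 2.4 and 2.3 in untreated and at 10.17, 9.87, 7.7 and 9.15 in mutant liver, at least 37.3-fold higher, and 3.13 ± 0.54 (SE) above the treated wild-type mean of 6.09 (adjusted p = 0.000641). Mutant replicate 3 was the lowest of its group in Phgdh, Sprr1a, Sprr1b, Hbegf, Ier3, Klf4, Hspa1b, Hspb1, Nupr1 and Atf3. With all arrays and without it, each of these genes was called higher in the mutant than in untreated and treated wild-type liver. For Atf3 the call against treated wild type was lost without mutant replicate 1 or 4 or treated wild-type replicate 2 or 3. Psat1, the second enzyme, rose at least 51.1-fold and stood 0.56 above treated wild type, a call lost without mutant replicate 1, 2 or 4 or treated wild-type replicate 1 or 4. Among aminoacyl-tRNA synthetases, which charge tRNAs, 17 of 30 measured members were higher and 1 lower (15 and 4 after centring, 17 and 4 after quantile normalisation), and 9 were higher and 1 lower than in treated wild type (7 and 3 without treated wild-type replicate 3). Of the NRF2 antioxidant targets 10 of 33 (30.3%) were higher and 12 lower (7 and 13 after centring). Over all genes tested, 32.6% were higher and 21.5% lower, so the higher members were near the share of all genes. Srxn1, sulfiredoxin, rose 4.6-fold and stood 1.07 above treated wild type (0.54 and not called when its probe sets were averaged, adjusted p = 0.0751). Abcc4, an export pump for bile acids and conjugates, rose at least 10.4-fold and stood 2.11 above treated wild type.

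**Figure D4:**
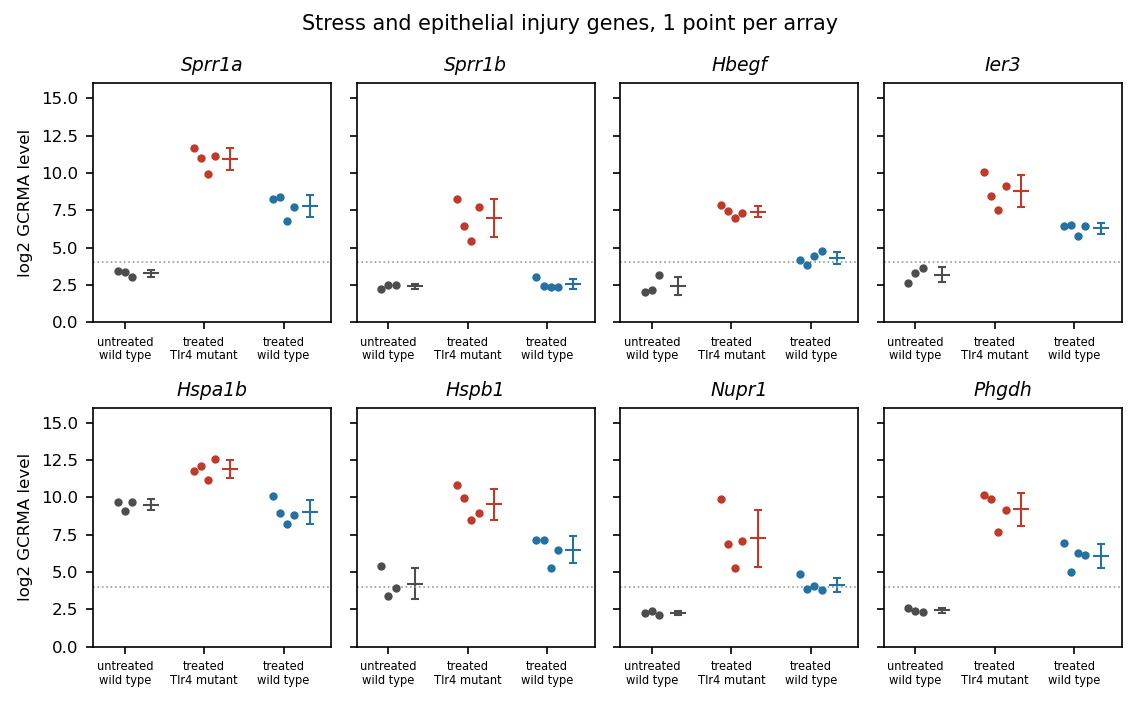
Log2 GCRMA levels (vertical axis) of Sprr1a, Sprr1b, Hbegf, Ier3, Hspa1b, Hspb1, Nupr1 and Phgdh in 3 untreated wild-type, 4 treated Tlr4 mutant and 4 treated wild-type livers, 1 point per array with the mean ± SD beside it and a dotted line at 4. The mutant is the highest group in every panel, and in Hspa1b and Sprr1b treated wild type lies near the untreated group.

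Most cytoskeletal and ribosomal genes rose. Of 24 measured tubulin, actin and actin-binding genes 23 were called higher and none lower (median 1.29). Tubb6, a tubulin chain scarce in resting liver, was at 3.56, 4.68 and 4.06 against 9.19, 8.95, 9.47 and 9.35, at least 31.8-fold higher, and Stmn1, which destabilises microtubules, rose 20.4-fold. The simple epithelial keratins of the hepatocyte rose from higher levels, Krt8 2.8-fold and Krt18 4.24-fold, with no call against treated wild type. In the list of keratins and epithelial stress genes, 9 of 17 measured members were called higher and 6 lower. Of 44 measured cytosolic ribosomal proteins 40 were called higher and none lower (35 and 1 after centring), with a small median of 0.62. Rplp0, a stalk protein, averaged 12.59 in untreated, 13.49 in mutant and 13.74 in treated wild-type liver, with no call between the exposed groups (adjusted p = 0.0638). It was called lower in the mutant without treated wild-type replicate 3 (0.042), with array weights (0.017) and with another prior (0.0234). Ribosomal protein genes have many processed pseudogenes, which can share probes with them.

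Many hepatocyte genes fell. None of 29 measured P450s and their regulators in families 1 to 3 was called higher, and 21 were called lower (median -1.17). In the list of pericentral genes 20 of 30 were lower and 2 higher (median -1.75), and in the periportal list 15 of 38 lower and 4 higher (median -0.31). Cyp2e1, the enzyme that activates DEN and CCl4, was at 14.23, 14.36 and 14.4 in untreated and at 10.91, 11.36, 10.53 and 10.39 in mutant liver, an 11.5-fold fall (adjusted p = 1.57e-06) with no call against treated wild type (difference -0.22). Glul, glutamine synthetase, confined to the last hepatocytes before the central vein, was at 12.4, 12.57 and 12.4 against 7.89, 8.88, 8.64 and 8.34, 16.3-fold lower. In both genes the groups were far apart and the untreated arrays close together.

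The deepest falls were those of Slc22a7 and Cyp2c37. Slc22a7, an organic anion transporter, was at 10.91, 10.55 and 10.73 in untreated and at 2.74, 3.6, 4.68 and 3.5 in mutant liver, at least 94.3-fold lower, and 2.65 ± 0.51 (SE) below treated wild type. Cyp2c37 was at 10.9, 10.84 and 10.8 against 4.16, 3.26, 4.99 and 3.37, at least 94.1-fold lower and 1.38 below treated wild type, a call lost without mutant replicate 2 or 4 or treated wild-type replicate 4. Cyp2c genes are close paralogs, so these probes may read more than 1 of them. Dio1, the deiodinase that activates thyroid hormone, fell at least 39.8-fold, Slc13a3, a dicarboxylate transporter, at least 34.5-fold, and Inmt, an amine methyltransferase, 28.8-fold. Ighm, the heavy chain of IgM and no hepatocyte gene, fell at least 22-fold.

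Some periportal genes fell and others were not called. Otc, a urea cycle enzyme, fell 2.84-fold, whereas Cps1, the first enzyme of the cycle, was at 13.86, 13.95 and 13.98 against 13.8, 13.5, 13.9 and 13.82 and was not called (adjusted p = 0.257; -0.36 and 0.0287 after centring). Cyp2f2, a periportal P450, fell 3.37-fold and was 0.67 below treated wild type (adjusted p = 0.011). Bhmt, which remethylates homocysteine with betaine, was at 14.53, 14.57 and 14.57 against 11.27, 12.84, 13.95 and 12.76, 3.62-fold lower; treated wild type was at 14.38, 1.67 above the mutant. Csad, an enzyme of taurine synthesis, went the other way, with means of 10.13 in untreated, 8.18 in mutant and 4.92 in treated wild-type liver, so that the mutant stood 3.26 ± 0.54 (SE) above treated wild type. The proline dehydrogenase Prodh kept the same order, at 10.8, 8.37 and 6.84.

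**Figure D5:**
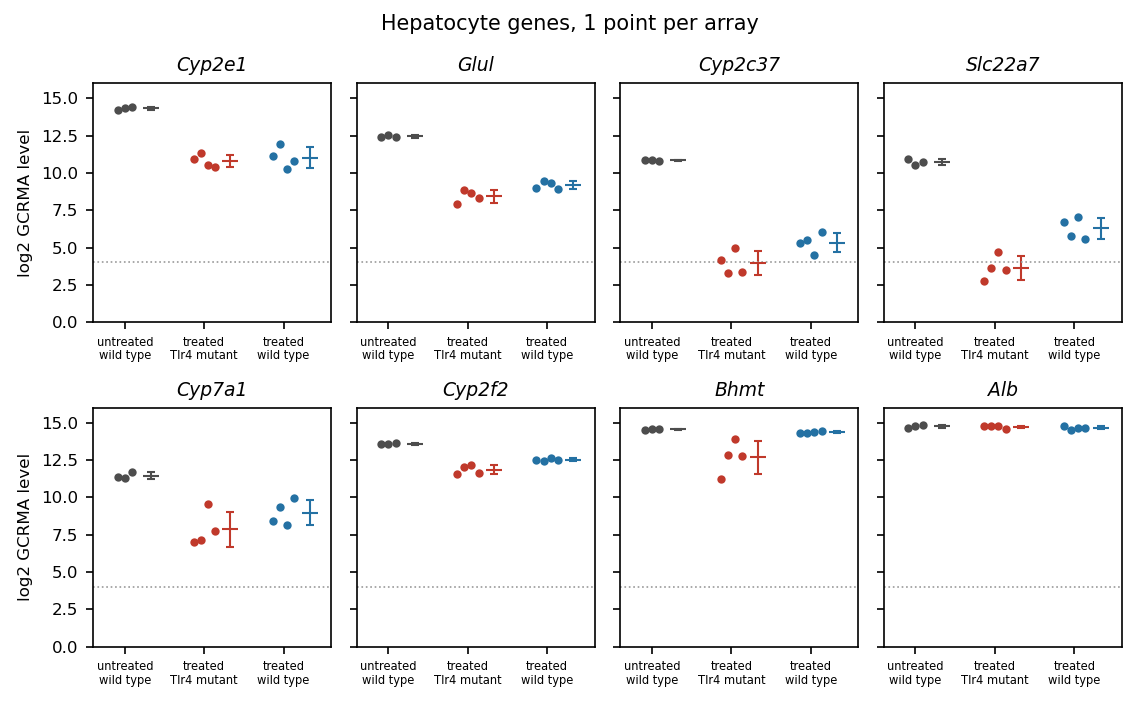
Log2 GCRMA levels (vertical axis) of the pericentral or transport genes Cyp2e1, Glul, Cyp2c37, Slc22a7 and Cyp7a1, the periportal gene Cyp2f2, Bhmt and Alb in 3 untreated wild-type, 4 treated Tlr4 mutant and 4 treated wild-type livers, 1 point per array with the mean ± SD beside it and a dotted line at 4. The mutant lies below untreated liver in every panel but that of Alb, and in Glul, Slc22a7, Cyp2f2 and Bhmt every mutant point lies below every treated wild-type point.

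Bile acids are made from cholesterol, and many genes of both pathways were lower. Of 39 measured genes of bile acid synthesis and transport 21 were called lower and 5 higher (3 higher without untreated replicate 2). Cyp7a1, the rate-limiting enzyme, was at 11.34, 11.28 and 11.73 in untreated and at 7.04, 7.14, 9.53 and 7.75 in mutant liver, 12-fold lower, and Cyp8b1, which directs synthesis to cholic acid, fell 10.7-fold. The uptake carrier Slc10a1 fell 3.48-fold. In cholesterol synthesis 20 of 27 measured members were lower and 1 higher (median -0.88), among them Hmgcs1 (2.61-fold), which makes the precursor of mevalonate (not called when its probe sets were averaged, adjusted p = 0.0599), and Tm7sf2, a sterol reductase (5.56-fold). None of these 5 genes was called between mutant and treated wild type, but Cyp7a1 and Cyp8b1 were called lower in the mutant in some other settings. These were without mutant replicate 3 (adjusted p = 0.00843 and 0.0266) and with array weights (0.0132 and 0.0173). Cyp7a1 was also called with its probe sets averaged (0.0172). Fatty acid synthesis had 18 of 37 lower and 6 higher; Thrsp, a lipogenic nuclear protein, was at 13.29, 13.39 and 13.49 against 9.7, 7.94, 8.78 and 10.78, 17-fold lower and 1.94 below treated wild type, a call lost on leaving out any exposed array but mutant replicate 4 and treated wild-type replicate 3.

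Genes that growth hormone keeps high in males fell as a group, 19 of 21 measured members being called lower and none higher (median -1.71). Susd4, a complement regulator, fell 29.6-fold, C6, a component of the membrane attack complex, 13-fold, and Slco1a1, an organic anion transporter, 11.9-fold. Female-biased genes had 5 of 14 measured members higher and 1 lower (5 and 3 after quantile normalisation). Over all genes tested, 32.6% were higher and 21.5% lower, so the higher members were near the share of all genes. Under 4 on all untreated arrays were 5 of the 14, of which 2 were called higher. The median difference of the female-biased list was 0.62, and 0.08 with values under 4 raised to 4. In the growth hormone axis itself 12 of 26 were lower and 1 higher: Igfals, which keeps IGF1 in the circulation, fell 5.06-fold, and Igfbp1, an IGF-binding protein induced by injury, rose 8.96-fold. Of 26 measured complement genes 14 were lower and 1 higher, and of 28 alcohol and aldehyde dehydrogenases 21 were lower and 2 higher, with Aldh3a2 9.73-fold lower.

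With the values as deposited, most transcription factors of hepatocyte identity were not called, but more were lower than higher. Hnf4a, a factor that many hepatocyte genes need, was at 11.59, 11.48 and 11.64 in untreated and at 11.58, 11.39, 11.42 and 11.42 in mutant liver, with overlapping arrays and no call (adjusted p = 0.316; -0.3 and 0.0174 after centring). Ppara, the factor of fatty acid oxidation, fell 2.37-fold and Cebpa, a factor of the resting hepatocyte, 2.03-fold. Over 29 measured factors 9 were lower and 2 higher, where 21.5% of all genes tested were lower and 32.6% higher. After centring the counts were 15 and 0, and after quantile normalisation 8 and 1. The respiratory chain showed small shifts, with 23 of 55 measured members lower and 2 higher at a median of -0.23; after centring 41 were lower and none higher, and after quantile normalisation 18 and 4. The flavoprotein and iron-sulphur subunits of complex II, Sdha and Sdhb, fell 2.12-fold and 2.01-fold.

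Some genes changed in the mutant with no call between treated and untreated wild type. Slc12a4, a potassium-chloride cotransporter, was at 6.37, 6.43, 5.74 and 6.04 in the mutant, at least 4.42-fold above untreated and treated wild type alike, both under 4 on every array. Its mutant arrays alone were enough to pass the filter, so some difference from both wild-type groups was fixed by that filter. Mndal, of the interferon-inducible p200 family, was at 2.87, 2.93, 6.58 and 3.15 in the mutant against means of 8.22 and 9.45 in untreated and treated wild type, at least 11.9-fold lower than untreated. Mutant replicate 3 stood far above the other 3 mutant arrays in this gene. Because no untreated C3H/HeJ liver was measured, such differences cannot be told apart from differences between the substrains that exist without treatment.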

How the data were processed

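Liver RNA of 15 samples was hybridised to Affymetrix arrays after 3′ IVT labelling, 1 array per sample, and 11 arrays belong to the 3 groups described. The deposited values are log2 levels that the authors made with GCRMA, per the submitters' processing notes; its settings and version are not given in the sources used here. GCRMA corrects each probe for background estimated from its sequence, and dim probe sets gather near a common floor, so differences among low values are uncertain. The deposited values entered the fit unchanged.

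Of 45101 probe sets, 34945 had a single gene symbol in the platform annotation, 932 several and 9160 none, and 64 were controls; symbols were updated through Entrez identifiers, of which 204 were not in the gene table. The filter left 15541 probe sets of 9482 genes. For 75 of the 3847 genes with several such probe sets, called probe sets went both ways. Group means were fitted to all 15 arrays with limma 3.58.1 in R 4.3.3 (lmFit, eBayes; 11 residual degrees of freedom, 3.4 prior), and p-values were adjusted over all genes by the Benjamini-Hochberg method at 0.05. Figures were drawn with matplotlib 3.10.9 in Python 3.11.15.

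The 70 gene lists and the members described were chosen with earlier results of these data known, so they are no independent evidence of a direction. Genes were named by rule: the 10 highest and 10 lowest called differences without overlap, the same among genes at 4 or more on all 7 arrays, up to 4 called members of each list, up to 8 genes per direction that differed in the mutant alone or in treated wild type alone, and a set of markers. Cd5l, Cfp, Col1a2, Cps1, Csf1r, Dusp1, Fcer1g, Hnf4a, Hspd1, Hspe1, Id3, Klf10, Krt8, Krt18, Marco, Mcm10, Mrc1, Msr1, Myc, Otc, Pcna, Rplp0, Slc10a1 and Slc40a1 lie outside this rule and were chosen after their values were seen.

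Alternatives were centring, quantile normalisation, values under 4 set to 4, other filters, other handling of probe sets, a fit to the compared arrays only, another prior, array weights, stricter thresholds and leaving out each array. Precision is limited by the number of arrays per group.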

Additional observations from a re-analysis of the deposited data

Results flagged for a closer look

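Among the 115 genes given with values, 10 (8.7%) had 1 mutant array whose gap to its nearest neighbour exceeded Dixon's 95% critical share of the range, a limit that chance passes for about 5% of groups. Mutant replicate 3 was the high array in Mndal (6.58, the others 2.87 to 3.15), Pcna (12.27, the others 11.9 to 11.93) and Aen (8.99, the others 8.46 to 8.55), and the low array in Myd88 (6.44, the others 6.94 to 6.99) and Tyrobp (5.21, the others 5.67 to 5.69). Mutant replicate 4 was the low array in Top2a (8.15, the others 8.66 to 8.73), Igfals (5.47, the others 6.42 to 6.61) and Alb (14.62, the others 14.76 to 14.78). Mutant replicate 1, the array without a sex label, was the high array in Sox9 (5.78, the others 4.75 to 4.89) and Hnf4a (11.58, the others 11.39 to 11.42).

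Probe sets with no gene symbol or with several took no part in the comparison of genes. Of the 2133 that passed the same filter, 585 were higher and 377 lower in treated mutant than in untreated wild-type liver in the same limma fit.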

How the results depend on the processing

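Strain, mutation and treatment changed together in the comparison with untreated wild type, each group has 3 or 4 arrays, and levels near 4 are close to background; these limits hold for every value above. The median difference over all genes, 0.13, turned to -0.052 after centring, -0.026 after quantile normalisation and -0.021 without a filter, and was 0.079 with values under 4 set to 4, 0.105 with a filter at 6 and 0.112 with the filter on the 7 arrays. With every probe set tested on its own, 7933 differed from untreated (4771 higher, 3162 lower; 1839 and 1115 by at least 2-fold) and 4443 from treated wild type (1946 higher, 357 of them by at least 2-fold). Tested against a 1.5-fold change, 1587 genes differed from untreated (994 higher, 593 lower) and 548 from treated wild type (82 higher and 466 lower, 81 and 466 by at least 2-fold). At an adjusted p under 0.01, 1690 differed from treated wild type (594 higher, 1096 lower). Genes at least 2-fold higher than in treated wild type numbered 188, and 290 after quantile normalisation; 466 were at least 2-fold lower with a filter at 6, against 746. Leaving out each array gave 4406 to 4966 genes against untreated (5136 with all) and 2244 to 2950 against treated wild type (2917 with all). Over 20 settings, 2270 of 2297 values of the named genes kept their direction and their side of the threshold against untreated liver, 24 lost a call, 3 gained one and none reversed. No paired analysis was possible because the title numbers run from 1 to 15 across the groups.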
